A study of Mus musculus with 24 samples.

Results

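Myc and Mycn, which encode the transcription factors c-Myc and N-Myc, were followed across mouse precursor B-cell leukaemia. The members were the probe sets whose annotation gives 1 of these gene symbols. They were 2 of the 17097 genes tested and 4 of 28898 probe sets that carry 1 symbol. Myc, on chromosome 15, had 1 probe set, 1424942_PM_a_at. Mycn, on chromosome 12, had 3, of which 1417155_PM_at had the largest spread and stands for the gene unless another is named. The others, 1425922_PM_a_at and 1425923_PM_at, were designed from a single GenBank record. The sources used here do not say where each probe set lies within its transcript.

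The arrays covered 24 samples. BKO408 is a preB-ALL (precursor B-cell acute lymphoblastic leukaemia) line from a Blnk knockout mouse, kept in medium with 10% serum and 5 ng/ml IL-7. It was measured on 4 arrays as such and on 4 after retroviral transduction of LAP (the activating C/EBPβ isoform), so both cell groups lack Blnk, an adaptor of B-cell receptor signalling. Of the tumours, 5 were preB-ALL that arose in Blnk knockout mice (Blnk preB-ALL) and 3 were preB-ALL from mice with both the knockout and the Cebpb LAP transgene (LAP/Blnk preB-ALL). Mice with the transgene and intact Blnk gave the other 8, which were 4 preB-ALL (LAP preB-ALL) and 4 B-ALL (LAP B-ALL). All the cell-line data come from the single line. The sources used here do not state the promoter of the transgene, the age of the mice or the share of tumour cells in a sample. All values are log ratios, taken as log2, to the median either of the 16 tumours or of the 8 arrays of cells. A value of 0 is therefore the middle sample of its own set and not an absence of expression, cells and tumours cannot be set against each other, and levels of different probe sets cannot be compared.

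c-Myc and N-Myc are basic helix-loop-helix leucine zipper proteins that bind DNA as partners of Max, at E-boxes with the letters CACGTG among other sites, and raise genes of ribosome production, nucleotide synthesis and cell growth. Mxd proteins and Mnt compete for Max and oppose them. In early B-cell development signals from the IL-7 receptor favour Myc expression and division, and the pre-B receptor later helps to shut Myc down. N-Myc can stand in for c-Myc in many settings, and high c-Myc can lower transcription of either gene.

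Several tumours carried other marker programmes, and the markers of 3 went against their labels. The tumour labelled LAP B-ALL 4 had a Cebpb ratio of -3.11, in the range of the Blnk preB-ALL tumours without the transgene (-4.50 to -1.94), against 0.14 to 0.90 in the other LAP B-ALL. It also kept Vpreb1, a surrogate light chain of the pre-B receptor, at 0.14, against -8.97 to -8.78 in the others. The tumours labelled LAP preB-ALL 2 and 4 had very low Vpreb1 ratios (-8.49 and -8.89). Their mature B-cell marker medians were 3.27 and 1.93, against 1.97 to 3.03 in LAP B-ALL 1 to 3 and at most 0.87 in the other tumours. Cebpb was also lower, at -1.41, in LAP preB-ALL 2. Results that rest on these tumours are given without them too, which leaves 2 LAP preB-ALL. They were picked by markers in these same data, so counts of genes called without them depend in part on that choice. The median ratio of the 6 measured erythroid markers of 10 listed was 5.08 to 5.98 in LAP B-ALL 1 to 3 and 5.37 in LAP preB-ALL 4, against -0.71 to 1.40 in the other tumours. The targeted genes checked the labels only in part. Blnk differed by -0.03 (SE 0.33, limma adjusted p = 0.967) between knockout and intact tumours and read 0.42, 0.52 and 1.23 in LAP/Blnk preB-ALL, and the labels do not say whether its probe set lies in the deleted part. Cebpb read -0.14, 0.01, -0.05 and -0.06 in control cells and 0.11, 0.24, 0.03 and -0.01 with LAP, a difference of 0.15 that did not pass (limma adjusted p = 0.0855). The labels do not say whether its probe set reads the LAP construct. In tissue RNA, fewer cells of a type and less RNA per cell cannot be told apart.

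The promoter of Mycn is shown because the members and their targets moved in the comparisons that follow. Beside it are those of Ldha and Nme1, Myc-induced genes that rose with LAP in the cell line. They were picked among Myc-induced genes whose window held an E-box, by smallest limma adjusted p in the cell line. Their E-boxes were thus fixed by that choice and are no finding about the genes that rose. Each sequence is the 250 bases before a RefSeq transcription start, read on the gene's own strand from the GRCm38.p6 table. The windows were chr12:12941837-12942086 for Mycn (minus strand), chr7:46845554-46845803 for Ldha (plus strand) and chr11:93968273-93968522 for Nme1 (minus strand). Capitals mark the E2F letters TTTGGCGC in Mycn and the E-box CACGTG in the other genes.
Mycn: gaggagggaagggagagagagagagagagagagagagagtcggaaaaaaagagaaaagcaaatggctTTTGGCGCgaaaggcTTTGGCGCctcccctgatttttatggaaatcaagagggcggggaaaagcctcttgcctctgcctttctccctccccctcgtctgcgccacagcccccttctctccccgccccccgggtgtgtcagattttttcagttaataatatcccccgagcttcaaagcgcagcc
Ldha: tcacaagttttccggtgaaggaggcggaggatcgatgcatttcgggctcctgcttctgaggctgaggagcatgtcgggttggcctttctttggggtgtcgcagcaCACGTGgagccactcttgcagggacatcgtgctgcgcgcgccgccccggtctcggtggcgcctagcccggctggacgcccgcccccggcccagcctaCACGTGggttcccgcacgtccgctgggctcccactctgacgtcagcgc
Nme1: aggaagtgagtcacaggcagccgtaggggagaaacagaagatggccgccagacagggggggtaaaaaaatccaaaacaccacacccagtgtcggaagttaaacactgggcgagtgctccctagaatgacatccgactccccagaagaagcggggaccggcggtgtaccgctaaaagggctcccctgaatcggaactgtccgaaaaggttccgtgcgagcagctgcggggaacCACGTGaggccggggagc
The Mycn window held TTTGGCGC, letters bound by E2F factors, at 183 and 168 bases before the start. These letters, searched on both strands, were in 0.42% of the 32851 windows. No match to the C/EBP letters TTGCNNAA, the E-box, the STAT letters TTCNNNGAA or the FoxO letters TGTTTAC was in the Mycn window. These letters were in 9.56%, 6.02%, 7.02% and 3.17% of all windows, in that order. In the windows shown, Ldha held the E-box at 145 and 48 bases before the start, and Nme1 at 18 bases. Both genes also had another RefSeq start, not shown. That window of Ldha (chr7:46846832-46847081) held no E-box, and that of Nme1 held it at 29 bases. Of 36 windows of 31 Myc-induced genes, 27.8% held an E-box. A match is a run of letters, and binding was not measured.

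Both genes were higher in BKO408 cells with LAP by their main probe sets, and 1 further probe set annotated to Mycn had the largest change of all 45141 probe sets. Myc read -0.16, -0.14, -0.07 and -0.09 on the 4 control arrays and 0.07, 0.13, 0.10 and 0.10 on the 4 LAP arrays. The groups did not overlap, and the mean rose by 0.21 (SE 0.03, 95% interval 0.15 to 0.28, limma adjusted p = 0.000742), a ratio of 1.16. The same comparison called 22.3% of all genes, and 26.8% of genes had groups that did not overlap.

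Mycn read -0.21, -0.19, -0.17 and -0.18 in control cells and 0.21, 0.22, 0.17 and 0.18 with LAP. The mean rose by 0.38 (SE 0.03, 95% interval 0.33 to 0.44, limma adjusted p = 7.66e-06), again with no overlap. The probe set 1425923_PM_at separated the groups far more widely. Per the labels the LAP cells alone were transduced, and whether the retroviral vector shares sequence with this probe set was not tested, so its value is given for the probe set and not as a change of Mycn RNA. It read -2.79, -2.92, -3.05 and -3.13 in control cells and 2.79, 2.79, 2.87 and 2.90 with LAP. The difference was 5.81 (SE 0.07, 95% interval 5.66 to 5.96), a ratio of 56.1 if the logarithm is base 2, with a limma adjusted p of 2.88e-10 over all probe sets, of which 7.97% passed as higher with LAP. It ranked 1 by size, ahead of 3.85 for Ccl9, a chemokine. After quantile normalization the difference was 4.14 (limma adjusted p = 1.26e-13).

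The remaining probe set of Mycn showed no such change. 1425922_PM_a_at read -0.01, -0.05, -0.04 and 0.19 in control cells and 0.01, 0.16, -0.04 and 0.13 with LAP, and the groups overlapped (difference 0.04, SE 0.06, 95% interval -0.10 to 0.19, limma adjusted p = 0.731 over all probe sets). The 3 probe sets of Mycn thus ranked 1, 923 and 27808 by size of change. Exact permutation tests gave p = 0.0286 for Myc and for both Mycn probe sets that rose, the smallest value that 4 against 4 allows. Over the 28 exact permutation tests made across all comparisons the adjusted p was 0.267. The labels do not say that replicates are separate cultures or animals, so p-values may cover technical spread alone.

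**Figure D1:**
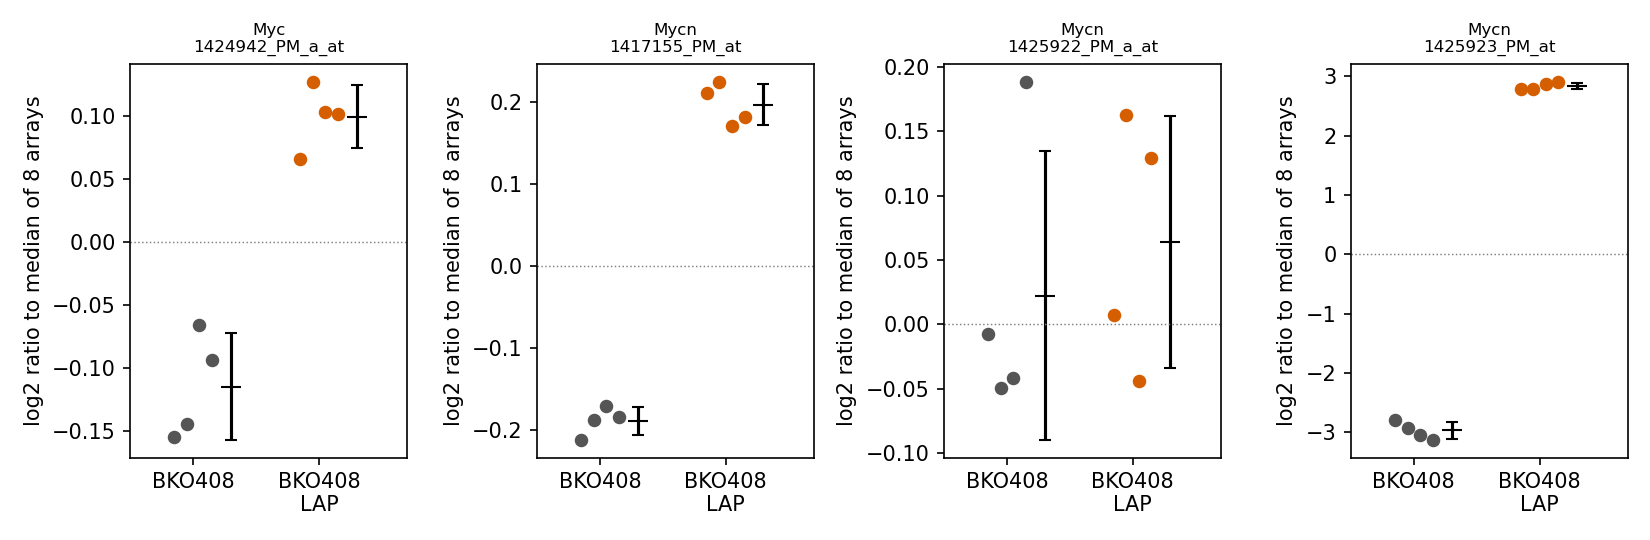
Log2 ratio to the median over 8 arrays (y axes, each with its own scale) of the Myc probe set and the 3 Mycn probe sets in control and LAP BKO408 cells; points are arrays and bars are mean ± SD (n = 4). The groups are apart for Myc, for 1417155_PM_at and for 1425923_PM_at, where the difference is 5.81, and overlap for 1425922_PM_a_at.

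Among the 11 measured partners of the Myc network, 4 fell and 1 rose with LAP, where 11.8% of all genes fell and 10.5% rose. The median difference was -0.07 beside -0.01 over all genes, and the 4 that fell were antagonists of the Mxd family. Mxd4 fell by 0.56 (SE 0.03, limma adjusted p = 4.82e-06), Mxd3 by 0.44, Mxd1 by 0.22 and Mxi1, another Mxd protein, by 0.14. Mlx, the partner of the glucose-sensing Mondo proteins, rose by 0.13. With any single array left out, 3 to 4 partners fell and 0 to 1 rose. Mnt differed by -0.10 and did not pass (limma adjusted p = 0.0880). Max was not measured by a named probe set.

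Genes that Myc proteins are known to induce were mostly higher with LAP. Of the 33 measured genes of growth and nucleolar function, 20 rose and 2 fell, beside 10.5% and 11.8% of all genes, with a median difference of 0.18 beside -0.01. Ppan, a ribosome assembly factor, rose by 0.48 (SE 0.03, limma adjusted p = 9.28e-06), Srm, the spermidine synthase, by 0.46, Rrp12 by 0.35 and Wdr43 by 0.31, both nucleolar proteins. The 2 that fell, named after their values were seen, were Shmt2, a mitochondrial enzyme of one-carbon metabolism, which fell by 0.35, and Cdk4, a cell-cycle kinase, which fell by 0.11. Nme1 and Ldha, whose promoters are printed above, rose by 0.27 and 0.14. Without BKO408 LAP replicate 3 the count that rose was 17, and without any single array it was 17 to 21.

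**Figure D2:**
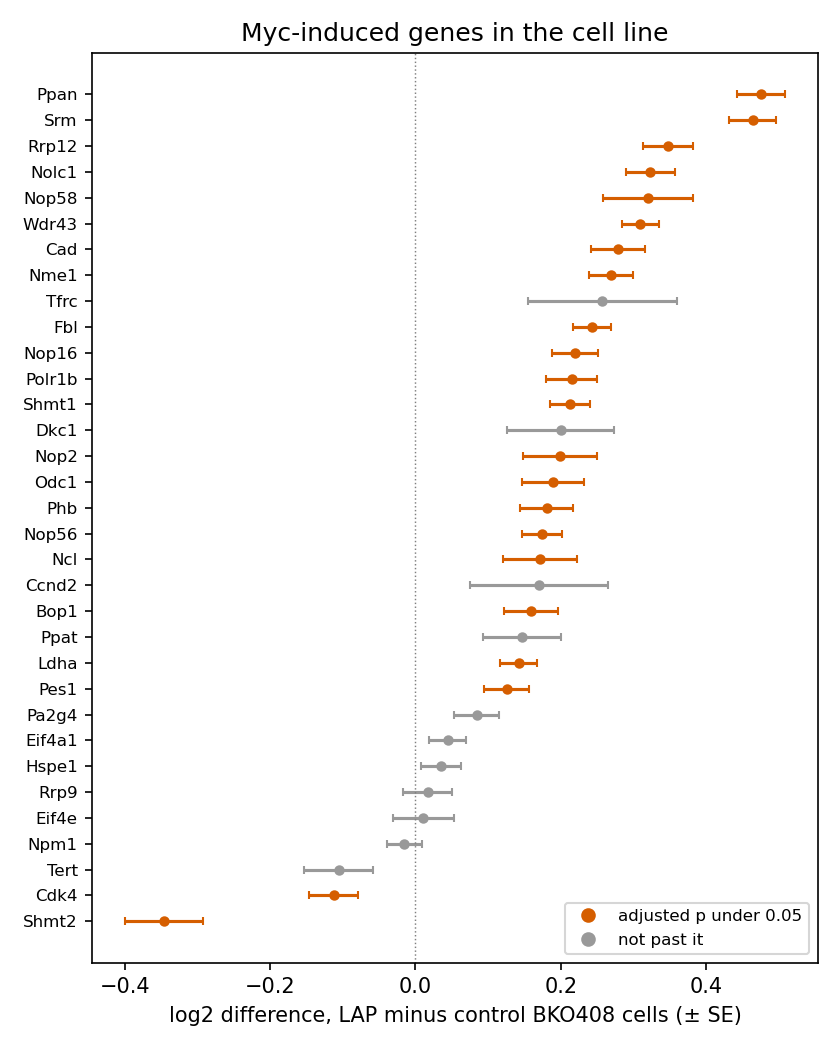
Difference in log2 ratio (x axis, LAP minus control BKO408 cells, bars ± SE) of the 33 measured Myc-induced genes, ordered by size; orange marks limma adjusted p under 0.05. The 20 genes that rose lie between 0.13 and 0.48, and Shmt2 and Cdk4 lie below 0.

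The genes that Myc proteins are known to repress were mixed. Of 14 measured, 6 rose and 3 fell, beside 10.5% and 11.8% of all genes, with a median difference of 0.11. Cdkn1a, the p21 inhibitor of cyclin-dependent kinases, rose by 1.44 (SE 0.08, limma adjusted p = 1.85e-06) and Klf2, a quiescence factor of lymphocytes, by 1.19. Btg2, an antiproliferative gene, fell by 0.69 and Cdkn2c, the p18 inhibitor, by 0.42. Of 10 measured genes that act on Myc protein stability or activity, 2 rose and 2 fell, beside the same shares of all genes. Pim1, a kinase induced by cytokines, rose by 0.50 and Aurka, a kinase that shields N-Myc from degradation, by 0.23. Skp2, a ubiquitin ligase subunit, fell by 0.26 and Usp28, a deubiquitinase of Myc, by 0.12.

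Genes beside the members did not share the large change at 1425923_PM_at. Of 10 measured genes around Mycn, Smc6 rose by 0.21 and Gen1 by 0.12, both DNA repair genes, and Cyria, an inhibitor of Rac signalling to actin, fell by 0.41. Ddx1, an RNA helicase close to Mycn, lay between -0.07 and 0.02 in control cells and between -0.01 and 0.04 with LAP. Around Myc, Pvt1, the adjacent non-coding RNA, rose by 0.19 and Sqle, the squalene epoxidase, fell by 0.38, of 10 measured. These 3 and 2 calls are near the 22.3% called among all genes. Upstream of Myc, 2 of 18 measured genes of the pre-B receptor and IL-7 pathways rose and 5 fell, beside 10.5% and 11.8% of all genes. Irf4, a transcription factor of the pre-B stage, fell by 1.41, Bach2, a repressor that acts at the pre-B checkpoint, by 0.51 and Jak3, the kinase of the common cytokine receptor chain, by 0.17, while Cd79b, a signalling chain of the receptor, rose by 0.14. The summed ratio of the 11 measured precursor B-cell markers of 13 listed was 2.51 to 3.13 in control cells and -2.63 to -2.33 with LAP. Their median ratio moved less, from 0.02 to 0.19 in control cells and -0.06 to -0.01 with LAP. Of the 11, 1 rose and 5 fell, beside the same shares of all genes, and Vpreb1 and Vpreb2 differed by 0.01 and -0.01. The part of these markers in the results was not tested.

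In the tumours, Mycn was high in single tumours of 3 groups and in none of the LAP preB-ALL. It read 8.20, -0.38, -0.39, 3.81 and 1.74 in Blnk preB-ALL 1 to 5. It read 3.45, 5.55 and -0.37 in LAP/Blnk preB-ALL 1 to 3. In LAP preB-ALL 1 to 4 it read 0.29, -0.34, -0.21 and 0.03. Every LAP preB-ALL value was thus close to 0, while 3 of 5 Blnk and 2 of 3 LAP/Blnk tumours were above 1. LAP B-ALL 1 to 3 read -0.03, -0.09 and -0.13, and the tumour labelled LAP B-ALL 4 read 3.88. On the array of Blnk preB-ALL 1, Mycn was the highest of all 45141 ratios, and it ranked 4 in LAP/Blnk preB-ALL 2.

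The other Mycn probe sets followed this pattern only in part. 1425922_PM_a_at was highest in the same Blnk preB-ALL 1, at 4.41, and read 0.70 and 0.71 in LAP/Blnk preB-ALL 1 and 2, 0.46 in the tumour labelled LAP B-ALL 4 and 0.42 in Blnk preB-ALL 4. It lay between -0.26 and 0.13 in the other 11 tumours. 1425923_PM_at, which changed most in the cell line, lay between -0.26 and 0.45 in all 16 tumours.

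Myc varied less than Mycn, apart from a single very low tumour. It read -3.70, 1.41, -0.18, 0.56 and -0.47 in Blnk preB-ALL 1 to 5. It read -0.75, -0.27 and 0.04 in LAP/Blnk preB-ALL 1 to 3. It read 1.29, 0.06, 1.21 and -0.01 in LAP preB-ALL 1 to 4 and -0.08, 0.10, -0.58 and 0.01 in LAP B-ALL 1 to 4. The 4 groups overlapped in every pair. In Blnk preB-ALL 1, where Mycn was highest, Myc was the 15th lowest of all ratios on the array.

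**Figure D3:**
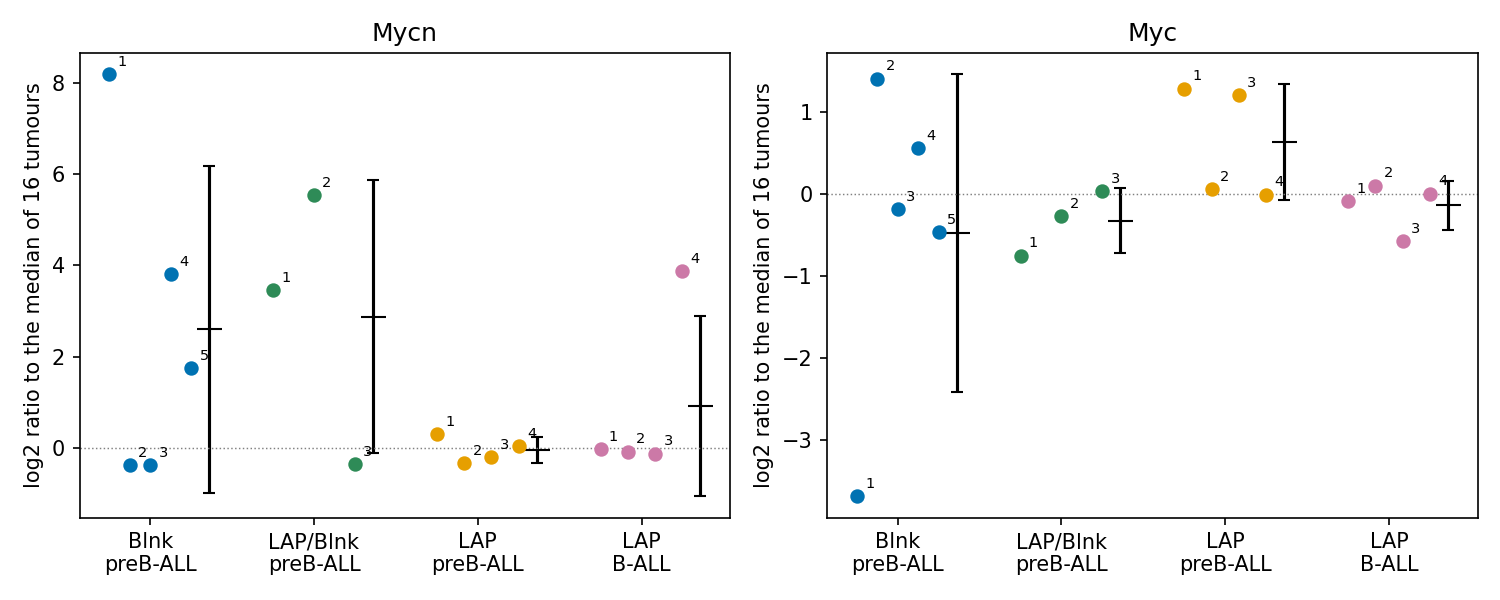
Log2 ratio to the median of the 16 tumours (y axes) of Mycn (1417155_PM_at) and Myc in the 4 tumour groups; points are tumours with their number and bars are mean ± SD (n = 5, 3, 4 and 4). Mycn reaches 8.20 in Blnk preB-ALL 1, where Myc is -3.70, and stays between -0.34 and 0.29 in LAP preB-ALL.

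Mean Mycn was highest in LAP/Blnk preB-ALL (2.88 ± 3.00, SD, n = 3), then in Blnk preB-ALL (2.59 ± 3.59, n = 5), LAP B-ALL (0.91 ± 1.98, n = 4) and LAP preB-ALL (-0.05 ± 0.28, n = 4). Mean Myc ran from LAP preB-ALL (0.64 ± 0.71) through LAP B-ALL (-0.14 ± 0.30) and LAP/Blnk preB-ALL (-0.33 ± 0.40) to Blnk preB-ALL (-0.47 ± 1.94). In both orders the values of neighbouring groups overlapped.

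LAP/Blnk preB-ALL were compared with each parent genotype to ask what the transgene and the knockout add to each other. Against Blnk preB-ALL, Myc differed by 0.15 (95% interval -1.61 to 1.91) and Mycn by 0.28 (-3.54 to 4.11), both with a limma adjusted p of 1.00. That comparison called 0.0175% of genes. Against LAP preB-ALL, Myc differed by -0.97 (-2.81 to 0.88, limma adjusted p = 0.585) and Mycn by 2.93 (-1.07 to 6.94, limma adjusted p = 0.429), where 2.37% of genes were called. Without LAP/Blnk preB-ALL 2 the Mycn difference was 1.60 and without LAP/Blnk preB-ALL 3 it was 4.56, with no call. Without LAP preB-ALL 2 and 4 Myc differed by -1.58 and Mycn by 2.83, again with no call.

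LAP preB-ALL and Blnk preB-ALL, the single genotypes, differed by 1.11 in Myc (-0.50 to 2.73, limma adjusted p = 0.535) and by -2.65 in Mycn (-6.17 to 0.87, limma adjusted p = 0.496), with 0.0819% of genes called. Without Blnk preB-ALL 1 these were 0.31 and -1.25, and without LAP preB-ALL 2 and 4 they were 1.73 and -2.55, with no call of either gene.

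LAP B-ALL were set against each preB-ALL group with and without the tumour labelled LAP B-ALL 4. Against LAP preB-ALL, Myc differed by -0.78 and Mycn by 0.96 (95% interval -2.75 to 4.67), and without that tumour Mycn differed by -0.03. Without LAP preB-ALL 2 and 4 as well, Myc differed by -1.44 and Mycn by -0.13, with no call of either. With all tumours limma called 0% of genes, with 1886 at an unadjusted p under 0.05, and 2279 of 17097 were called without the 3 tumours. That higher count follows in part from leaving tumours out by their markers. Against Blnk preB-ALL, Mycn differed by -1.69, with 1.45% of genes called. Without the tumour labelled LAP B-ALL 4 it differed by -2.68 (limma adjusted p = 0.349), with 1835 of 17097 genes called. Against LAP/Blnk preB-ALL, Mycn differed by -1.97, with 3.52% called. Without that tumour it differed by -2.96 (limma adjusted p = 0.362), with 1980 of 17097 called. Myc differed by 0.34 and 0.19 in the last pair of comparisons.

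The 8 knockout tumours were set against the 8 intact ones, a contrast that mixes Blnk status with the transgene, which all 8 intact and 3 of the knockout tumours carry, and with tumour class, since 4 of the intact tumours are B-ALL. Over both pairs of groups, Mycn was 2.31 higher on average in Blnk knockout tumours than in Blnk-intact tumours (SE 1.24, 95% interval -0.35 to 4.97, limma adjusted p = 0.246), a difference that did not pass. Without the tumour labelled LAP B-ALL 4 it was 2.81 (95% interval 0.13 to 5.48, limma adjusted p = 0.138). Myc differed by -0.65 (95% interval -1.88 to 0.58, limma adjusted p = 0.494). This comparison called 5.35% of genes as higher and 3.66% as lower, 1539 of 17097 in all, and 3045 without that tumour. Without LAP preB-ALL 2 and 4 Mycn was 2.26 higher and 811 genes were called, and without the 3 tumours these were 2.76 and 2521, with Mycn not called. Of the 28 exact permutation tests over all probe sets and comparisons, 0 passed after adjustment and 3 had an unadjusted p under 0.05, all in the cell line.

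Mycn was also set against Myc within each sample, as the difference of the ratios, whose zero is set by the centring of each probe set. It was -0.06, -0.04, -0.10 and -0.09 in control cells and 0.14, 0.10, 0.07 and 0.08 with LAP, without overlap. The smallest exact permutation p that 4 against 4 allows is 0.0286, and over 7 comparisons it passes only if others are small too. The groups differed by 0.17 (exact permutation p = 0.0286, adjusted over 7 comparisons 0.200), which did not pass. On the mean of the Mycn probe sets, which takes in 1425923_PM_at, they differed by 1.86 with the same p. Among tumours LAP/Blnk and LAP preB-ALL differed by 3.90 (exact permutation p = 0.0857, adjusted 0.200), and by 2.00 on the mean of probe sets.

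Over the 16 tumours Myc and Mycn had a Pearson r of -0.68 (permutation p = 0.00876) and a Spearman rho of -0.41 (permutation p = 0.115). Without the pair farthest from the median of Myc, Blnk preB-ALL 1 and 2, r was -0.23 (permutation p = 0.443), and without Blnk preB-ALL 1 alone it was -0.30 (permutation p = 0.288). The relation rests on Blnk preB-ALL 1. Within groups, the deviations from group means gave r = -0.63 with all tumours. The 6 tumours with Mycn above 1, a bound chosen after the values were seen, had Myc from -3.70 to 0.56 with a median of -0.37, and the other 10 had Myc from -0.58 to 1.41 with a median of 0.05. The highest Myc ratios, 1.41, 1.29 and 1.21, all lay in tumours with Mycn at or below 0.29.

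**Figure D4:**
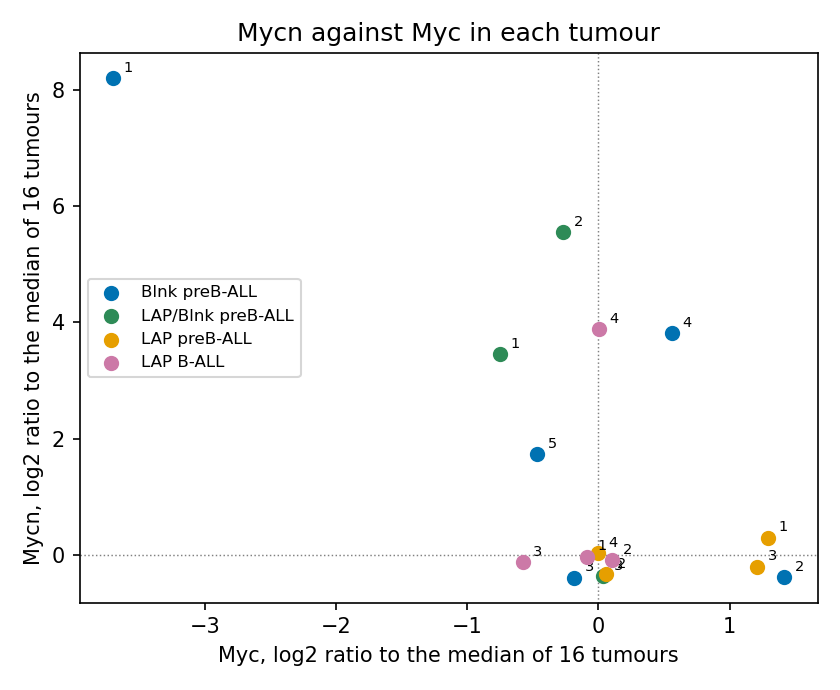
Mycn (y axis) against Myc (x axis), both as log2 ratio to the median of the 16 tumours; each point is a tumour with its number, coloured by group. Blnk preB-ALL 1 stands alone at the upper left, and the 3 tumours with Myc above 1 have Mycn between -0.38 and 0.29.

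Myc-induced genes were highest in the tumours with the highest Myc and in the tumour with the highest Mycn. The median ratio of the 33 genes was 0.57, 0.41, -0.11, 0.21 and -0.27 in Blnk preB-ALL 1 to 5. It was -0.05, -0.05 and -0.12 in LAP/Blnk preB-ALL, 0.58, 0.08, 0.61 and -0.06 in LAP preB-ALL and -0.04, -0.17, -0.31 and -0.04 in LAP B-ALL. Blnk preB-ALL 1, with Myc at -3.70, was thus level with LAP preB-ALL 1 and 3, where Myc was 1.29 and 1.21. Ncl, which encodes nucleolin, was highest of all in Blnk preB-ALL 1 (0.57), and Srm was highest in LAP preB-ALL 3 (1.35) and 1 (1.05), with 0.71 in Blnk preB-ALL 1. LAP/Blnk preB-ALL 2, with Mycn at 5.55, had a list median of -0.05.

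As a description, the median correlation of these 33 genes with Myc was 0.10 over 16 tumours, with 24 of 33 above 0. Without Blnk preB-ALL 1 it was 0.77 over 15 tumours, with 31 of 33 above 0, beside a median of -0.06 over all genes. With Mycn it was 0.14 over 16 tumours and -0.10 without that tumour. These points share the arrays and their scaling. Without Blnk preB-ALL 1, the median correlation with Myc was -0.48 for the 10 granulocyte markers and -0.33 for the 6 erythroid markers measured, and their part in this pattern was not tested.

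**Figure D5:**
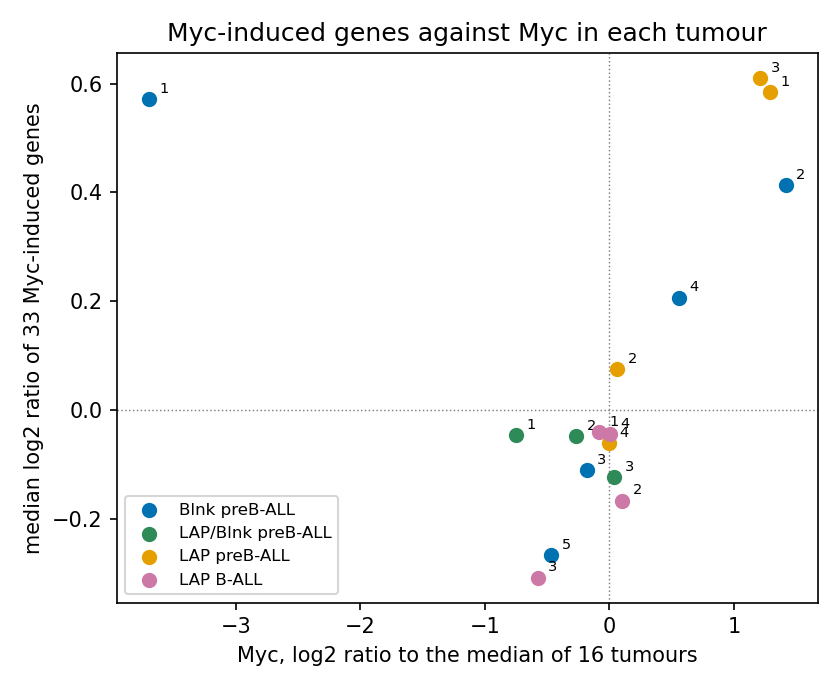
Median log2 ratio of the 33 measured Myc-induced genes (y axis) against the Myc log2 ratio (x axis) in the 16 tumours, coloured by group and numbered. The list median runs from -0.31 to 0.61 with Myc in 15 tumours, and Blnk preB-ALL 1 sits at 0.57 with Myc at -3.70.

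Between tumour groups, few Myc-induced genes were called. LAP/Blnk against LAP preB-ALL had 0 higher and 1 lower of 33, where 2.37% of all genes were called, with a median of -0.41 beside -0.03 over all genes. That gene, Ccnd2, the cyclin D2 of cycling B cells, fell by 3.99 (SE 0.98, limma adjusted p = 0.0496) and by 2.80 in knockout against intact tumours. LAP/Blnk against Blnk preB-ALL called 0 of 33, with a median of -0.33, and LAP preB-ALL against Blnk preB-ALL called 0, with a median of 0.12. LAP B-ALL had medians of -0.50, -0.36 and -0.04 against LAP preB-ALL, Blnk preB-ALL and LAP/Blnk preB-ALL, with 0 called. Of all genes, 0%, 1.45% and 3.52% were called there, in that order. Leaving out the tumours that went against their labels changed these counts. Without LAP preB-ALL 2 and 4, Ccnd2 did not pass in LAP/Blnk against LAP preB-ALL, and 3 other genes were lower there, named after their values were seen: Srm by 1.61, Phb, a prohibitin, and Hspe1, a mitochondrial chaperonin. Without the 3 tumours, LAP B-ALL against LAP preB-ALL had 0 higher and 13 lower of 33, with a median of -0.78 beside -0.01 over all genes, where 1079 of 17097 genes were lower. The LAP preB-ALL left there, 1 and 3, had the highest list medians of all tumours, 0.58 and 0.61. In the same setting 4 were lower against Blnk preB-ALL, and 1 was higher and 2 were lower against LAP/Blnk preB-ALL. The shares over all genes are not given for these counts or for the 3 other genes, so no reading is made of them. Without the tumour labelled LAP B-ALL 4 alone, Odc1, the ornithine decarboxylase, also passed in LAP B-ALL against LAP/Blnk preB-ALL (1.25) and in knockout against intact tumours (-0.94). Those fits called 1980 and 3045 of 17097 genes.

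Of the Myc-repressed genes, 3 were higher and 1 was lower of 14 in knockout against intact tumours, beside 5.35% and 3.66% of all genes. Cdkn1a was higher by 1.01, Cdkn2c by 0.89 and Cdkn1b, the p27 inhibitor, by 0.84, and Klf2 fell by 1.55. Cdkn2c was also 1.39 higher in LAP/Blnk than in LAP preB-ALL (limma adjusted p = 0.00888), and Klf2 3.36 higher in LAP B-ALL than in LAP/Blnk preB-ALL. Without the tumour labelled LAP B-ALL 4, 3 were higher and 2 lower in knockout against intact tumours, beside 1600 and 1445 of 17097 genes. Without LAP preB-ALL 2 and 4 only Cdkn2c (0.95) and Cdkn1b (0.98) passed, and without the 3 tumours 3 were higher and 1 lower, Klf2 not among them. The counts of all genes called in the last 2 fits are given above.

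Of the 10 regulators of Myc protein, 2 were higher and 1 was lower in knockout against intact tumours, beside 5.35% and 3.66% of all genes. Gsk3b, a kinase that marks Myc proteins for degradation, was 0.75 higher (SE 0.11, limma adjusted p = 0.00173) and Skp2 0.74 higher, and Pim2, a growth kinase, fell by 0.87. Gsk3b was also 0.79 higher in LAP/Blnk than in LAP preB-ALL, a call lost without LAP preB-ALL 2 and 4. Of 11 network partners 0 were called, with 4710 of 17097 genes at an unadjusted p under 0.05. Without the tumour labelled LAP B-ALL 4, 3 rose and 1 fell, beside 1600 and 1445 of 17097 genes. Mxd4, lower with LAP in the cell line, was then 0.92 higher in knockout tumours (limma adjusted p = 0.00143), and Mxd1 fell by 1.43. Without the 3 tumours these alone passed, at 1.00 and -0.96, and without LAP preB-ALL 2 and 4 none did, of 811 genes called in all and 3709 at an unadjusted p under 0.05. The marker lists above moved with these groups, and their part was not tested.

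Genes around Mycn were examined in the tumours where Mycn was high. In Blnk preB-ALL 1 Smc6 read 1.58 and Ddx1 1.07, the highest values of each over the tumours, while Nbas, close to Mycn and Ddx1, read 0.04. Blnk preB-ALL 2, with Mycn at -0.38, had the next values, 1.11 and 0.51. In LAP/Blnk preB-ALL 2, with Mycn at 5.55, Smc6 was 0.88, Ddx1 0.46 and Nbas 0.00. In the tumour labelled LAP B-ALL 4, with Mycn at 3.88, they were 0.10, -0.30 and -0.10. Neighbours were thus not high in every tumour with high Mycn. Rdh14 and Gen1 were the 2 of 10 neighbours called in knockout against intact tumours, 0.93 and 0.66 higher, where 5.35% of all genes were higher. Around Myc, Tatdn1 fell by 0.55 there, where 3.66% of all genes were lower, and Pvt1 was -0.40 in Blnk preB-ALL 1.

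Of the 18 measured genes of the pre-B receptor and its kinases, 4 were higher and 1 was lower in knockout against intact tumours. Over all genes, 5.35% were higher and 3.66% lower. Vpreb1 was 5.63 higher, Vpreb2 5.31, Bach2 2.91 and Jak1, a kinase of the IL-7 receptor, 0.65, and Jak3 fell by 0.43. Without LAP preB-ALL 2 and 4 only Jak1 passed, and without the 3 tumours the counts were 4 and 1, though Vpreb1 helped to choose the tumours left out. The counts of all genes called in these fits are given above. Vpreb1 was low in 5 of the 8 Blnk-intact tumours, all with Mycn between -0.34 and 0.03. Mycn was as low, between -0.39 and 0.29, in 5 tumours that kept Vpreb1, and the 6 tumours with Mycn above 1 all kept it.

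The genes most like each member over the 16 tumours were found by Pearson correlation, as a description. Ltbp2 (r = 0.87), Foxf2 (0.86), Elovl3 (0.85), Thsd1 (0.85) and Nrxn2 (0.85) were most like Mycn, with r of the deviations from group means of 0.85, 0.88, 0.87, 0.83 and 0.85. Without Blnk preB-ALL 1 their r with Mycn was 0.79, 0.83, 0.79, 0.84 and 0.77. Most like Mycn were then Vbp1 (0.89), Ska2 (0.89), Plxna2 (0.85), Zfp40 (0.85) and Thsd1 (0.84). Foxf2, a forkhead factor of mesenchyme, read 4.58 and Ltbp2, a matrix protein, 4.38 in Blnk preB-ALL 1. Hsd17b1 (-0.81), Retreg1 (-0.81), Phf11a (-0.78), Itgal (-0.77) and Bcl2 (-0.76) were least like Mycn over all tumours. Elovl3 lay only between -0.13 and 0.23 over the tumours, and Hsd17b1 between -0.16 and 0.11. Bcl2, the survival factor, read -1.93 in Blnk preB-ALL 1. The 10 stroma and endothelium markers had a median correlation with Mycn of 0.30, with 9 above 0. Without Blnk preB-ALL 1 it was 0.38, beside -0.01 over all genes, and 0.44 for the 11 measured precursor B-cell markers, with 8 above 0. Blnk preB-ALL 5, with Mycn at 1.74, had the highest stroma and granulocyte marker medians, 1.32 and 3.42. The part of such cells in these correlations was not tested.

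Vps26b (0.71), Septin1 (0.67), Tmem185a (0.66), Pop5 (0.66) and Srd5a3 (0.66) were most like Myc, and Frmpd1 (-0.85), Bhmt (-0.85), Reg1 (-0.85), Gja3 (-0.84) and Mgarp (-0.83) least. The lowest correlations followed Blnk preB-ALL 1, where Gja3, a connexin, read 3.97 against a highest value of 0.12 in the other tumours. Without that tumour the genes most like Myc were Nifk (0.94), Nob1 (0.94), Nsun2 (0.93), Tomm5 (0.92) and Rae1 (0.92). Nifk and Nob1 act in ribosome assembly. Blnk preB-ALL 1 read 0.41 for Nifk and 0.70 for Nob1, both above 0 although its Myc was the lowest.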

How the data were processed

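Total RNA of 24 samples was made into biotin-labelled cRNA from 100 ng for Affymetrix arrays, per the labels' protocols. The submitters' processing notes name MAS5 alone. The deposited values were taken as log2 ratios, with a base and an array scaling that the sources used here do not state. Each probe set has a median of 0 over the 16 tumours and another median of 0 over the 8 arrays of cells, so the deposited log2 values hold no level or detection call, and the number of arrays limits the precision. Symbols came from a table of platform annotation, where 28898 had 1 symbol, 551 several and 15692 none. RefSeq GRCm38.p6 matched 28689, with 0 symbols updated.

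For each of 17097 genes the probe set with the largest SD around the cell and tumour means was kept. Comparisons used limma 3.58.1 (R 4.3.3), two-sided, with no variance trend and Benjamini-Hochberg adjustment over all genes, at a threshold of 0.05. Cell arrays were fitted apart, and all 16 tumours together. Single probe sets and the Mycn minus Myc difference were compared by exact permutation, and correlations by 100000 permutations (scipy 1.17.1). The fit was run on simulated arrays with independent genes and large planted changes. That run does not bear on small changes or on tumours whose markers go against their labels. Named genes were every probe set of Myc and Mycn, in each pathway list up to 4 members with the smallest adjusted p in the cell line and in the comparisons among preB-ALL groups, members that passed between tumours, and the 5 genes most and least correlated with each member. Exceptions are marked. The members and lists were chosen with earlier results of these data known. Alternatives were other normalizations, probe-set rules, array weights, another logarithm base, left-out arrays and a replicate block. 0 columns belonged to no sample.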

Additional observations from a re-analysis of the deposited data

Results flagged for a closer look

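Of 20 groups of 4 or 5 samples examined over the 4 probe sets, 2 held a sample far from the rest, and chance gives about 1 in 20. Mycn in the tumour labelled LAP B-ALL 4 read 3.88, where the nearest other LAP B-ALL read -0.03. On the probe set 1425922_PM_a_at, Mycn in Blnk preB-ALL 1 read 4.41, where the nearest other tumour of the group read 0.42.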

How the results depend on the processing

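The calls of Myc and Mycn in the cell line held under every alternative except a fit of all 24 arrays, in which neither passed (0.21, SE 0.66, and 0.38, SE 1.43), the spread then coming mostly from tumours. With any single array left out they were 0.20 to 0.23 and 0.38 to 0.39, and 5.76 to 5.87 for the probe set 1425923_PM_at. Same-numbered replicates did not pair the samples: their correlation in the cell line was -0.03 to 0.26, and 3 of 8 arrays were nearest their own number. With the replicate block Myc (limma adjusted p = 0.00516) and Mycn (0.000543) were still called, no tumour call was gained, and the count of genes called in the cell line was 3427 against 3820. In LAP/Blnk against Blnk preB-ALL, Myc turned to -0.13 after quantile normalization and -0.061 with array weights, Mycn to -0.10 and the Mycn minus Myc difference to -0.25 on the mean of probe sets, and the cause was not tested. Mycn in LAP B-ALL against LAP preB-ALL turned to -0.13 without the 3 tumours whose markers go against their labels. With single tumours left out, ranges that crossed 0 were -0.66 to 0.62 (Myc), -1.05 to 1.91 (Mycn) and -1.17 to 2.34 (Mycn minus Myc) in that comparison, -0.029 to 1.31 for Mycn in LAP B-ALL against LAP preB-ALL, -0.47 to 0.81 for Myc and -3.24 to 0.18 for Mycn minus Myc in LAP B-ALL against Blnk preB-ALL, and -0.023 to 0.37 for Myc in LAP B-ALL against LAP/Blnk preB-ALL. The correlation of Myc with Mycn was -0.23 without the pair farthest in Myc, -0.40 with 1425923_PM_at, -0.37 without the Blnk preB-ALL group and -0.30 without Blnk preB-ALL 1, none past the threshold. The network, list and left-out-tumour alternatives were added after the data were seen.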
